A study of Mus musculus with 48 samples.

Results

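The first long day of mice that had lived under short days was followed from 8 to 20 h after its lights came on. The samples were the 8 arrays of the advance condition from ZT0 to ZT12, set against the 2 advance arrays at ZT16, the moment of light onset, which together are 10 of the 48 arrays of the series. They were chosen by labelled condition and time point alone, without any measured value. ZT counts hours from lights-on of the preceding short-day cycle, so that ZT0, ZT4, ZT8 and ZT12 lay 8, 12, 16 and 20 h after the advanced light onset.

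All mice were CBA/N males, bought at 3 weeks of age and kept with 8 h of light and 16 h of darkness for 3 weeks. In the advance group, aged 6 weeks, the lights then came on 8 h early, at ZT16, and replaced the rest of the night. The short-day group stayed on 8 h of light and was aged 8 weeks. Its 10 arrays at the same ZTs served as the reference for time of day without the early light. The long-day group, also aged 8 weeks, had 16 h of light for 2 weeks and gave 12 arrays over the whole day. The advance mice were therefore younger than both chronic groups, and their pools were separate from those of the other groups, so a difference between conditions also compares ages and sets of mice. If the advanced light lasted the 16 h of a long day, it ended at ZT8, the hour at which lights also went off on short days. The labels do not state that hour for the advance group.

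The pars tuberalis is the sheet of endocrine cells around the pituitary stalk. It carries a high density of melatonin receptors and reads the length of the night from the duration of the nocturnal melatonin signal. Under long days its cells make thyrotropin, which acts on tanycytes of the neighbouring hypothalamus and raises their type 2 deiodinase, the enzyme that makes the active thyroid hormone. EYA3 is a coactivator that takes part in the induction of the thyrotropin beta gene, and a circadian clock in the same cells sets the hours at which these genes respond.

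Each array measured RNA pooled from 25 mice, taken with a 0.5-mm needle from slices of the brain cut at 0.5 mm, so that neighbouring cells could be included. In such bulk tissue, fewer cells of a type and less RNA per cell cannot be told apart. Every group had 2 arrays from a repeat of the whole procedure. Nothing beyond that says how separate the repeats were, and p-values measure the spread between such pools, part of which may be technical. Levels are the deposited log2 probe set values, errors are SE from a limma model of all 48 arrays, and a gene passed when its adjusted p was below 0.05 over 18194 genes.

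Array medians in the advance and short-day conditions lay between 6.975 and 7.026. Genes that define the tissue were bright in the 10 advance arrays: Cga, the common alpha subunit of the pituitary glycoprotein hormones, read 13.97 to 14.43, and Tshb, the thyrotropin beta subunit, read 11.44 to 13.25. Pars distalis hormones stood above a log2 level of 10 in 2 of the arrays used, with Gh at 10.01 and Prl at 11.14 in advance ZT12 replicate 2 and Gh at 10.82 and Prl at 11.06 in short-day ZT12 replicate 1. The summed level of the pars distalis markers, as log2, was 13.426 and 14.057 in the 2 advance ZT16 arrays. It was 13.309 to 14.51 in the later advance arrays. Under short days it was 13.726 and 13.878 at ZT16 and 13.738 to 14.25 later. The short-day ZT16 replicates differed most, with 84 genes more than 2-fold apart, against 2 genes between the advance ZT16 replicates. The actin signal of the 3 prime end minus that of the 5 prime end, as log2, also differed between conditions. It was 1.821 to 2.192 in the later short-day arrays and 1.543 to 1.863 in the later advance arrays. The highest value, 2.192, was that of short-day ZT0 replicate 2. At ZT16 it was 1.714 and 1.776 in advance and 1.765 and 1.859 under short days. Choroid plexus markers were uneven under short days: their summed level, as log2, ran from 11.37 to 14.159 in the later short-day arrays, against 10.805 to 11.421 in the later advance arrays. Their part in the results was not tested. Counts of genes, and the advance steps and step differences of named genes, were refitted without these arrays. The short-day steps of single genes were not, so their values below rest on all arrays.

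After 8 h of the advanced light, 12 genes were higher (0.066%) and 18 were lower (0.0989%) than at light onset, 30 of 18194 genes or 0.165%. At 12 h 63 genes had risen (0.346%) and 83 had fallen (0.456%), 146 in all or 0.802%. At 16 h 56 were higher (0.308%) and 55 lower (0.302%), 111 in all or 0.61%. At 20 h 46 were higher (0.253%) and 35 lower (0.192%), 81 in all or 0.445%. Over the 4 steps 241 genes passed at least once, of which 150 passed in 1 step, 64 in 2, 18 in 3 and 9 in all 4, and none passed with opposite signs. All 4 steps share the same 2 onset arrays, so a deviation of those arrays enters every step. Leaving out either onset array lowered the counts to 15 or 11 at 8 h, 56 or 40 at 12 h, 49 or 64 at 16 h and 44 or 46 at 20 h. Leaving out 1 of the 2 later arrays gave 18 or 11 at 8 h, 42 or 53 at 12 h and 48 or 57 at 16 h. At 20 h the count was 40 without replicate 2, the array with the high pars distalis hormones.

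**Figure D1:**
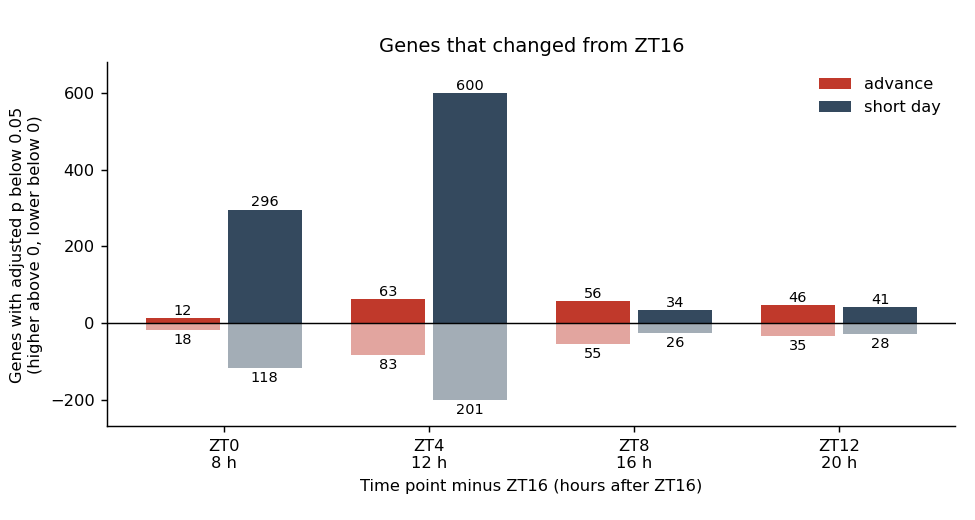
Number of genes with an adjusted p below 0.05 at each time point minus ZT16, with higher genes above 0 and lower genes below 0, in advance and short-day arrays. The advance bars peak at ZT4, with 63 higher and 83 lower genes, and the short-day bars also peak at ZT4, with 600 higher and 201 lower genes.

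Courses of 3 kinds were read from these steps. A sustained gene passed in all 4 steps in 1 direction. An early gene passed at 8 h but not at 20 h, with a change from 8 to 20 h that passed in the opposite direction. A late gene passed at 20 h but not at 8 h, with a change from 8 to 20 h that passed in the same direction. Between 8 and 20 h 167 genes passed (0.918%), of which 87 rose (0.478%) and 80 fell (0.44%). There were 9 sustained genes (2 higher, 7 lower), 14 early genes (5 higher, 9 lower) and 41 late genes (30 higher, 11 lower), which are 0.0495%, 0.0769% and 0.225% of the genes tested. The other 177 of the 241 genes met none of these rules. The names describe the hours from 8 to 20 h alone and not the start of a response. At 4 h, ZT20, which the rules did not use, 20 of the 30 late rises were also higher than at light onset, beside 0.539% of all genes, with a median change of 0.751 over the 30. None of them passed at 8 h, and the 4 h step shares the onset arrays with the others. Because the courses were read from the steps themselves, the step values below describe the genes and are no further support for them.

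**Figure D2:**
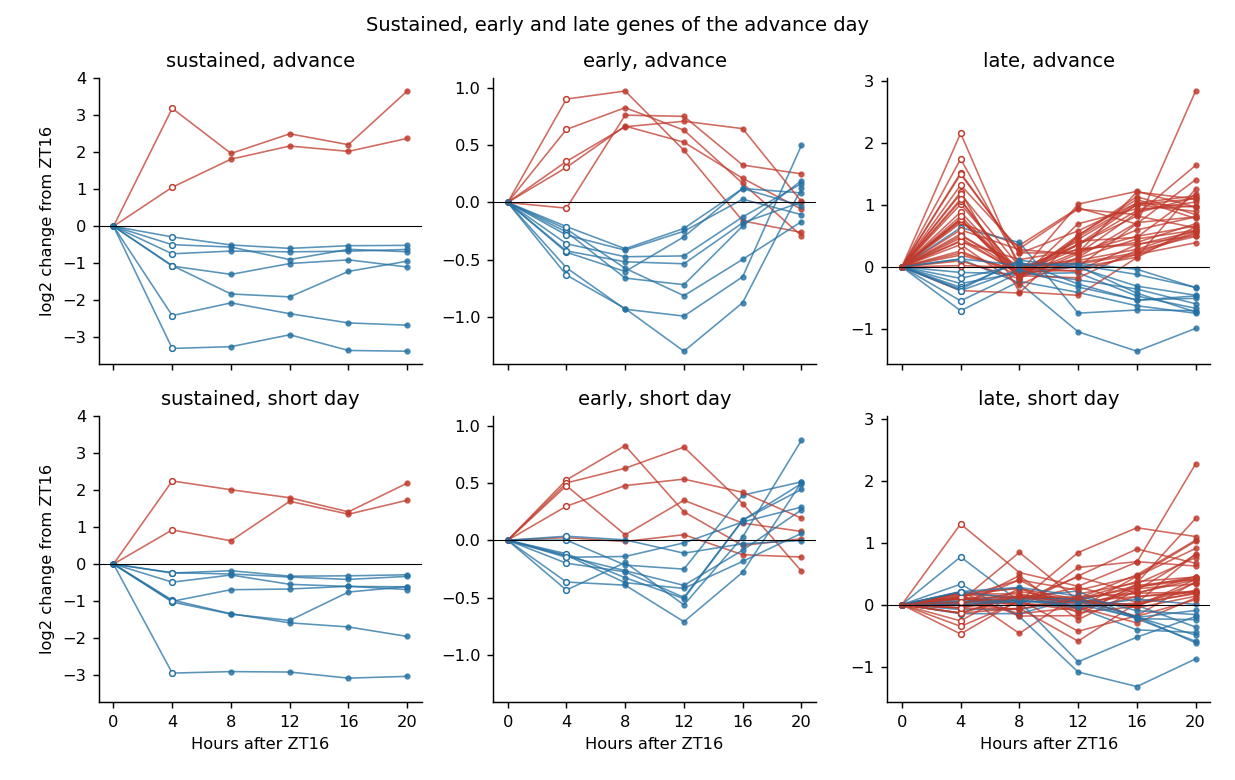
Change from ZT16 on the log2 scale against hours after ZT16 for each sustained, early and late gene in the advance arrays. Red lines are higher and blue lines lower genes, the lower panels show the same genes under short days, and open circles are ZT20, which the rules did not use. In advance, sustained genes lie away from 0 from 8 to 20 h, early genes return toward 0 by 20 h, and late genes lie nearer 0 at 8 h than at 20 h, with 20 of the 30 late rises also high at 4 h.

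The sustained genes were led by Neurod1, a neuroendocrine transcription factor of the basic helix-loop-helix family. Its log2 level was 9.83 and 9.68 at light onset, 6.30 and 6.72 at 8 h, 6.62 and 7.04 at 12 h, 6.29 and 6.52 at 16 h, and 6.35 and 6.42 at 20 h. All 8 later arrays lay far below both onset arrays, and the change at 20 h was -3.37 ± 0.18 on the log2 scale (fold change 0.0966, adjusted p = 2.73e-15). Klhl41, a kelch protein known from muscle, read 5.33 and 5.53 at 20 h, against 8.27 and 7.92 at light onset, with changes of -2.07 at 8 h and -2.67 ± 0.15 at 20 h (adjusted p = 2.48e-14). Cry1, a repressor at the core of the circadian clock, read 8.65 and 8.56 at light onset, 6.97 and 6.58 at 8 h, 6.66 and 6.73 at 12 h, 7.37 and 7.40 at 16 h, and 7.67 and 7.65 at 20 h. It was lowest at 8 and 12 h and partly back at 20 h, where its change from onset was -0.94 ± 0.13 (adjusted p = 4.56e-05), and its change from 8 to 20 h was 0.88 (adjusted p = 0.000126). Its promoter is shown because it holds the E-box, the motif at which the clock activators bind. The window covers 250 bases before to 50 after the start of transcription, at chr10:85185005-85185304 on the minus strand (RefSeq, GRCm38.p6), and the capitals mark the E-box CACGTG, 60 bases before the start.
Cry1: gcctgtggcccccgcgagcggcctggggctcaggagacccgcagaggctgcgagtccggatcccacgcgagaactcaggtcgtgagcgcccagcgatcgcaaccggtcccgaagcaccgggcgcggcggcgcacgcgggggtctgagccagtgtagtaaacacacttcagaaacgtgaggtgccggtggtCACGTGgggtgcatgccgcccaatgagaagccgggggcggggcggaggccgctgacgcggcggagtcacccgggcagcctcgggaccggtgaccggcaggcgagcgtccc

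The other sustained falls were smaller. Lonrf1, a RING finger protein, changed by -1.30 at 8 h and -1.10 at 20 h. Tshr, the receptor for thyrotropin, read 9.28 and 9.35 at light onset, 8.89 and 8.62 at 8 h, 8.38 and 8.45 at 12 h, 8.56 and 8.82 at 16 h, and 8.51 and 8.74 at 20 h. The lowest Tshr levels were at 12 h, where the change was -0.90 ± 0.11 (adjusted p = 2.57e-06). Det1, part of a ubiquitin ligase with COP1, changed by -0.63 to -0.69, and Zbtb18, a zinc finger repressor, by -0.50 to -0.60. Dusp4 and Timeless were the sustained rises. Dusp4, a nuclear phosphatase that switches off MAP kinases, read 6.87 and 6.01 at light onset, 8.17 and 8.64 at 8 h, 8.94 and 8.93 at 12 h, 8.48 and 8.80 at 16 h, and 9.92 and 10.26 at 20 h. The onset replicates differed by more than the later pairs did, but every later array was above both, and the rise at 20 h was 3.65 ± 0.32 (12.6-fold, adjusted p = 1.54e-09). Timeless, a chromosome replication protein named after a clock gene of Drosophila, read 11.68 and 11.94 at 20 h, against 9.52 and 9.35 at light onset, a rise of 2.37 ± 0.18 (5.18-fold, adjusted p = 3.87e-11). Without advance ZT16 replicate 2, Dusp4, Tshr and Det1 left the class, and without advance ZT0 replicate 2, Dusp4 and Tshr did. Tshr also left it without advance ZT16 replicate 1 or ZT8 replicate 1. Det1 also left it without advance ZT8 replicate 2 or without ZT12 replicate 2, the array with high Gh and Prl.

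**Figure D3:**
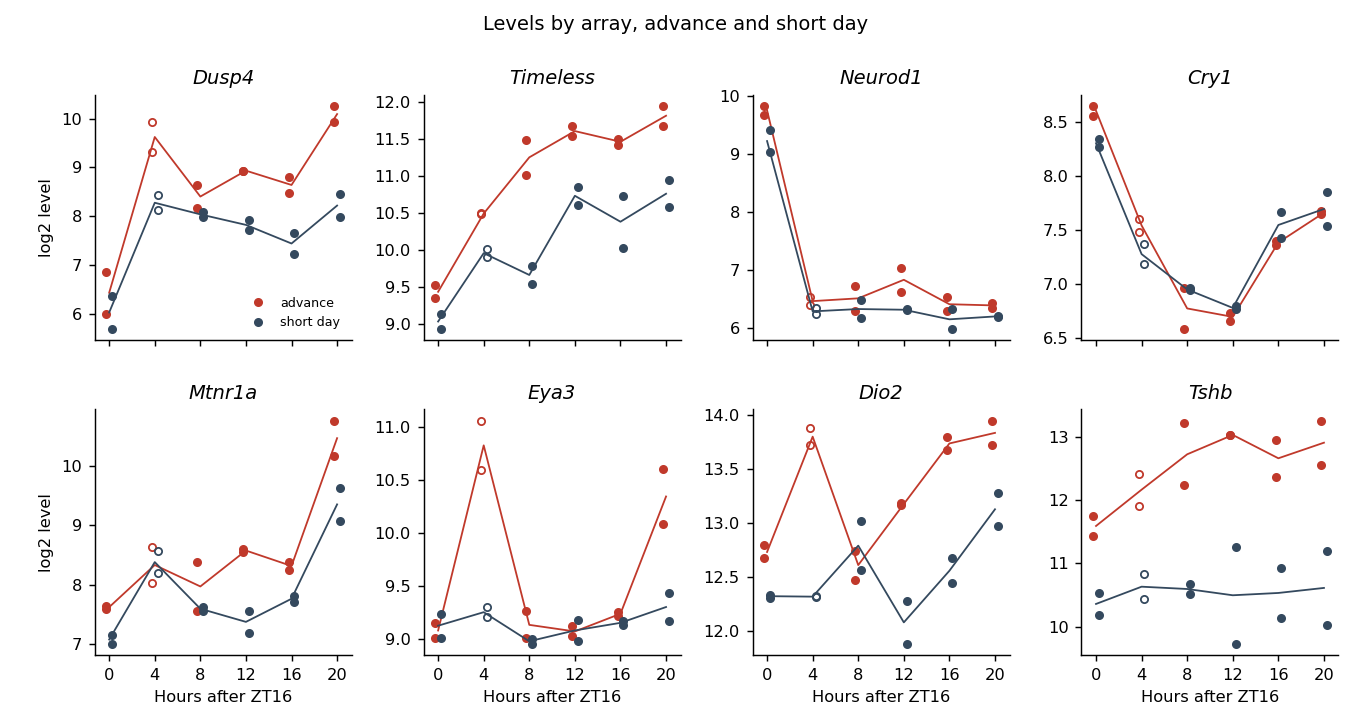
Log2 level per array against hours after ZT16 for selected sustained and late genes and for Tshb in advance and short-day arrays. Lines run through the means of 2 arrays, and open circles mark ZT20. Advance Mtnr1a reads 10.17 and 10.76 at 20 h, against 7.60 and 7.65 at light onset.

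Of the 14 early genes, 4 were on the heat shock list: Hspa1a, Hspa1b, Hsph1 and Dnajb1, all lower at 8 h. The early falls were Hspa1b, Hspa1a, P4ha2, Lamp5, Hsph1, Dnajb1, Ahsa2, Sft2d2 and Fam171b. Hspa1a and Hspa1b encode the inducible chaperone HSP70; they are near-identical copies whose probe sets may read both. Hspa1b read 10.44 and 10.13 at light onset, 9.16 and 9.55 at 8 h, 9.42 and 9.16 at 12 h, 9.84 and 9.43 at 16 h, and 10.68 and 10.88 at 20 h. Both 8 h arrays were below both onset arrays (change -0.93 ± 0.18, adjusted p = 0.0139), whereas both 20 h arrays were above them, and the change from 8 to 20 h was 1.43 (adjusted p = 7.32e-06). Dnajb1, the HSP40 partner of HSP70, fell by 0.52 ± 0.11 at 8 h (adjusted p = 0.0432) and changed by 0.00 at 20 h. Hsph1, an HSP110 nucleotide exchange factor, read 13.67 and 13.84 at light onset, 13.25 and 13.11 at 8 h, 12.93 and 12.95 at 12 h, 13.29 and 13.23 at 16 h, and 13.55 and 13.62 at 20 h. It was lowest at 12 h, where the change was -0.81 ± 0.10 (adjusted p = 5.69e-06). The Hsph1 promoter is shown because it was the 1 window of these genes to hold the heat shock element as searched, which is GAA, TTC and GAA set 2 bases apart on either strand. The window is chr5:149636287-149636586 on the minus strand, and the capitals mark the match, which begins 36 bases after the start of transcription.
Hsph1: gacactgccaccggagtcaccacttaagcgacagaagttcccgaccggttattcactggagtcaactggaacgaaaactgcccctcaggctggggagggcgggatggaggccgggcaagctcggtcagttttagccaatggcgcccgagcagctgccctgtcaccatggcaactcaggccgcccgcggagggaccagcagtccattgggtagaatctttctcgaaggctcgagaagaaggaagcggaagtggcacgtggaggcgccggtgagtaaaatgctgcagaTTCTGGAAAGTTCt

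Of the 9 measured heat shock and cold inducible genes, 4 fell at 8 h, 5 fell and 1 rose at 12 h, 2 fell at 16 h and none passed at 20 h. The list's median change was -0.461 at 8 h and -0.535 at 12 h, beside -0.0075 and -0.0214 over all genes, and it was -0.007 at 20 h. The 1 rise was Cirbp, the cold-inducible RNA-binding protein, which read 10.27 and 10.25 at 12 h, against 9.16 and 9.16 at light onset (change 1.10 ± 0.22, adjusted p = 0.00505). Cirbp thus moved opposite to the chaperones at 12 h, and at 20 h it read 9.09 and 8.82. Among other early falls, P4ha2, a collagen prolyl hydroxylase, changed by -0.66 at 8 h, and Lamp5, a membrane protein of the LAMP family, by -0.60. The 8 h calls of Hspa1a, Dnajb1, P4ha2 and Lamp5 and the 12 h call of Cirbp were each lost without any 1 of the 4 arrays of the step, and Dnajb1 also lost its call with the mean of its probe sets.

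The early rises were Nmu, Fabp7, Plch2, Rdh9 and the transcript Gm1976. Nmu, the neuropeptide neuromedin U, read 7.96 and 7.74 at light onset, 8.74 and 8.90 at 8 h, 8.17 and 8.45 at 12 h, 7.59 and 7.79 at 16 h, and 7.59 and 7.59 at 20 h. Both 8 h arrays were above the onset and later arrays (change 0.97 ± 0.15, 1.96-fold, adjusted p = 0.000519). The change from 8 to 20 h was -1.23 (adjusted p = 2.8e-06). At 4 h Nmu read 8.68 and 8.83, about as high as at 8 h. Fabp7, a brain fatty acid binding protein that also marks astrocytes, rose by 0.83 ± 0.12 at 8 h and by 0.63 ± 0.12 at 12 h (adjusted p = 0.000108 and 0.00294), and no other astrocyte marker of the 10 measured passed in these steps. Plch2, a phospholipase C, rose by 0.76 ± 0.11 at 8 h, but its dimmer probe set changed by -0.07, and the mean of both did not pass. The early class was the least stable: it held 5 or 4 genes without 1 onset array, 6 or 2 without 1 of the 8 h arrays, and 7 or 8 without 1 of the 20 h arrays. The 2 genes that met the early rule without advance ZT0 replicate 2 were Fabp7 and Hspa1b.

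Mtnr1a and Eya3 were late rises. Mtnr1a, the melatonin receptor of the pars tuberalis, read 7.60 and 7.65 at light onset, 7.55 and 8.39 at 8 h, 8.60 and 8.55 at 12 h, 8.38 and 8.26 at 16 h, and 10.17 and 10.76 at 20 h. Both 20 h arrays stood well above the other 8 arrays, and the rise was 2.84 ± 0.40 (7.17-fold, adjusted p = 4.47e-05). Eya3 read 9.01 and 9.15 at light onset, 9.01 and 9.26 at 8 h, 9.12 and 9.02 at 12 h, 9.26 and 9.22 at 16 h, and 10.08 and 10.60 at 20 h. Its levels were flat through 16 h and then higher in both 20 h arrays, a rise of 1.26 ± 0.18 (2.40-fold, adjusted p = 7.16e-05). Of its other probe sets, the brightest changed by 0.877 and the 2 dimmest by 0.051 and -0.035. Eya3 was the 1 gene, of 11 measured that encode EYA or DACH proteins or the homeobox factors they bind, that passed in any of the 4 steps. Eya3 was also high 4 h after light onset, at ZT20, where its arrays read 10.59 and 11.06, whereas Mtnr1a read 8.03 and 8.63 then and did not pass (change 0.71, adjusted p = 0.771).

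The Mtnr1a promoter is shown because Mtnr1a had the largest late rise and an E-box in its window, 207 bases before the start of transcription. The window is chr8:45068857-45069156 on the plus strand, and the capitals mark CACGTG.
Mtnr1a: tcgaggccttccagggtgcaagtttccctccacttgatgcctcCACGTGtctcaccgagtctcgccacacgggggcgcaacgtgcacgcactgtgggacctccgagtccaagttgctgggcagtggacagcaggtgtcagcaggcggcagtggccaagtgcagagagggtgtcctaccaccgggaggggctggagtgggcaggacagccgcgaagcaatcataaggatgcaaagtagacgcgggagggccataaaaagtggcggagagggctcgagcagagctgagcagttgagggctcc

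Among genes that handle thyroid hormone, Dio2 and Slco1c1 were late rises. Dio2, the type 2 deiodinase, read 12.67 and 12.79 at light onset, 12.48 and 12.75 at 8 h, 13.16 and 13.19 at 12 h, 13.68 and 13.80 at 16 h, and 13.72 and 13.95 at 20 h. At 4 h Dio2 read 13.72 and 13.88, so the 16 and 20 h levels were about those of 4 h, with lower levels at 8 h. From 12 h on, all 6 arrays were above both onset arrays, and the rise was 1.00 ± 0.14 at 16 h and 1.10 ± 0.14 at 20 h (adjusted p = 3.97e-05 and 8.03e-06). Slco1c1, a transporter of thyroxine, rose by 0.87 ± 0.18 at 16 h and by 1.12 ± 0.18 at 20 h (adjusted p = 0.00796 and 0.000378). These were the 2 of the 11 measured thyroid hormone handling genes that passed at 16 or 20 h, and Dio2 is also a tanycyte marker. Of the 14 measured tanycyte markers, Gpr50, an orphan relative of the melatonin receptors, was the other to pass: it fell by 0.43 at 20 h (adjusted p = 0.0302), a call lost when either onset array was left out and with the mean of its probe sets. The summed tanycyte level was 15.296 to 15.668 in the later advance arrays and 15.461 to 15.476 at light onset. Their part in the Dio2 rise was not tested.

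Hhip, Dram1 and Hdac4 were further late rises. Hhip, a binding protein that restrains hedgehog ligands, read 9.24 and 9.48 at 20 h, against 8.18 and 8.36 at light onset (rise 1.10 ± 0.15, adjusted p = 1.79e-05), and its rise at 16 h was 1.21 ± 0.15. It was the 1 hedgehog gene of 12 measured that passed. Dram1, a membrane protein of autophagy, passed from 12 h on, with rises of 0.58 at 12 h, 1.03 at 16 h and 1.15 ± 0.11 at 20 h (adjusted p = 1.83e-08). Dram1 read 9.60 and 9.61 at 4 h, above every later advance array. The class II deacetylase gene Hdac4 read 9.30 and 9.55 at 20 h, against 8.38 and 8.37 at light onset, a rise of 1.05 ± 0.12 (adjusted p = 5.32e-07). At 4 h Hdac4 read 9.25 and 9.53, Hhip 9.70 and 9.82, Pde10a 11.49 and 11.43 and Crem 10.16 and 10.69, and all 4 passed there. Of the 26 measured genes of melatonin and cAMP signalling, 2 rose at 16 h and 4 rose at 20 h, while none fell. The 4 were Mtnr1a, the phosphodiesterases Pde10a (0.90 ± 0.17) and Pde4d (0.59 ± 0.08), and Crem, whose products include the repressor ICER (0.65 ± 0.15). Another Pde4d probe set changed by -0.148 and the mean of both by 0.22, and the mean of the Crem probe sets changed by 0.33. Neither mean passed, and Crem also lost its call without any 1 of the 4 arrays of the step. The list's median change at 20 h was -0.066, beside -0.0243 over all genes.

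Dio2 and Hhip are shown as the late genes with both a cAMP response element in the window and a rise that differed in course from short days. The windows are chr12:90738989-90739288 for Dio2 and chr8:80057959-80058258 for Hhip, both on the minus strand, and the capitals mark TGACGTCA, 95 and 75 bases before the start of transcription.
Dio2: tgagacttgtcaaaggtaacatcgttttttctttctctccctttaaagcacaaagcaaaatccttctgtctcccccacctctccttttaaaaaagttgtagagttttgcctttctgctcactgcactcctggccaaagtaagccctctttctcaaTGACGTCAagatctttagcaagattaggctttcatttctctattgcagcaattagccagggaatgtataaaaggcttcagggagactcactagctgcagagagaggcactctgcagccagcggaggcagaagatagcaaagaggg
Hhip: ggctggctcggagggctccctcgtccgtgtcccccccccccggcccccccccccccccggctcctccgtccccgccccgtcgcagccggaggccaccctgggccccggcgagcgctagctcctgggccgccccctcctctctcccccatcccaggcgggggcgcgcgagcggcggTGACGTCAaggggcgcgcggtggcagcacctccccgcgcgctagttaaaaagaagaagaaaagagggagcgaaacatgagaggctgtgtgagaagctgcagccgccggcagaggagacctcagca

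Further late rises included Piwil4, a PIWI protein (1.64 ± 0.32), Aldh1a7, an aldehyde dehydrogenase (1.41 ± 0.17), Morc4, a MORC family zinc finger protein (1.18 ± 0.22), and Ppp1r3c, which brings protein phosphatase 1 to glycogen (0.97 ± 0.12). The bZIP genes Fosl2 and Maff rose by 0.58 ± 0.14 and 0.56 ± 0.12. Among late falls, Hes6, a basic helix-loop-helix factor, read 8.05 and 8.11 at 20 h, against 8.94 and 8.72 at light onset (change -0.75 ± 0.13, adjusted p = 0.00077). Fgd3, an exchange factor for CDC42, changed by -0.99 ± 0.16 at 20 h, and Lgr6, a receptor for R-spondins, by -0.67 ± 0.12. With the mean of each gene's probe sets, Hes6, Lgr6, Fosl2 and Per2 did not pass at 20 h. Leaving out advance ZT12 replicate 2, with its high Gh and Prl, left 19 late genes, 18 of them among the 41. Mtnr1a, Eya3, Dio2, Slco1c1, Dram1, Hdac4, Pde4d, Aldh1a7, Ppp1r3c, Maff and Npas2 were among these, while Hhip, Pde10a, Crem, Per2, Piwil4, Morc4 and Fosl2 were not. Maff and Npas2 were no longer late genes without advance ZT12 replicate 1. Leaving out advance ZT16 replicate 1 left 26. Of the 8 genes that passed between 16 and 20 h, 0.044% of those tested, Eya3, Mtnr1a, Hspa1a and Hspa1b rose, and Ciart, Tex11, Zfand4 and Cfap54 fell (0.022% in each direction). No gene passed in that comparison without advance ZT8 replicate 2 or without advance ZT12 replicate 2.

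Clock genes moved mostly in the middle of the window. Of 22 measured clock genes, 3 rose and 2 fell at 8 h, 10 rose and 5 fell at 12 h, 10 rose and 4 fell at 16 h, and 3 rose and 2 fell at 20 h. The list's median change was 0.485 at 12 h, beside -0.0214 over all genes. Over the 5 time points 16 of the 22 passed an F test for any change, beside 2.12% of all genes. The repressor Per1 read 8.99 and 8.85 at light onset, 8.89 and 9.0 at 8 h, 9.75 and 10.03 at 12 h, 10.08 and 10.18 at 16 h, and 9.51 and 9.54 at 20 h. It changed by 0.02 after 8 h of light and was highest at 16 h (rise 1.21 ± 0.17, adjusted p = 4.6e-05). Per2, a late gene, was lower in both 8 h arrays than at light onset without passing (-0.42, adjusted p = 0.461) and rose by 1.14 at 16 h and 0.85 at 20 h. Nr1d1, which encodes the repressor REV-ERB alpha, was 0.99 ± 0.13 higher at 8 h and 1.32 ± 0.13 higher at 12 h (adjusted p = 3.31e-05 and 4.67e-08). Dbp, an activator at D-boxes, rose by 1.22, 1.89 and 1.62 at 8, 12 and 16 h, and its repressor counterpart Nfil3 changed by -0.83, -1.34 and -0.91. The activator Arntl changed by -0.99 at 12 h and -1.05 at 16 h, and Npas2, a partner of ARNTL, read 5.26 and 5.42 at 20 h, against 6.09 and 6.0 at light onset (change -0.71 ± 0.13, adjusted p = 0.00186).

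A group of 24 genes, singled out after their values were seen, passed at 12 and 16 h and at neither end. It held the clock genes Arntl, Per1, Per3, Nr1d2, Ciart, Tef and Bhlhe40. Outside the clock list it held Klf15, a zinc finger factor with a daily rhythm in many tissues (0.50 and 0.69), Tex11, a meiosis protein (1.14 and 1.04), and Dgat2, an enzyme of triglyceride synthesis (0.58 and 0.59). Phlda1 (-0.69 and -0.73) and Ier5 (-0.68 and -0.53), both immediate early response genes, fell.

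**Figure D4:**
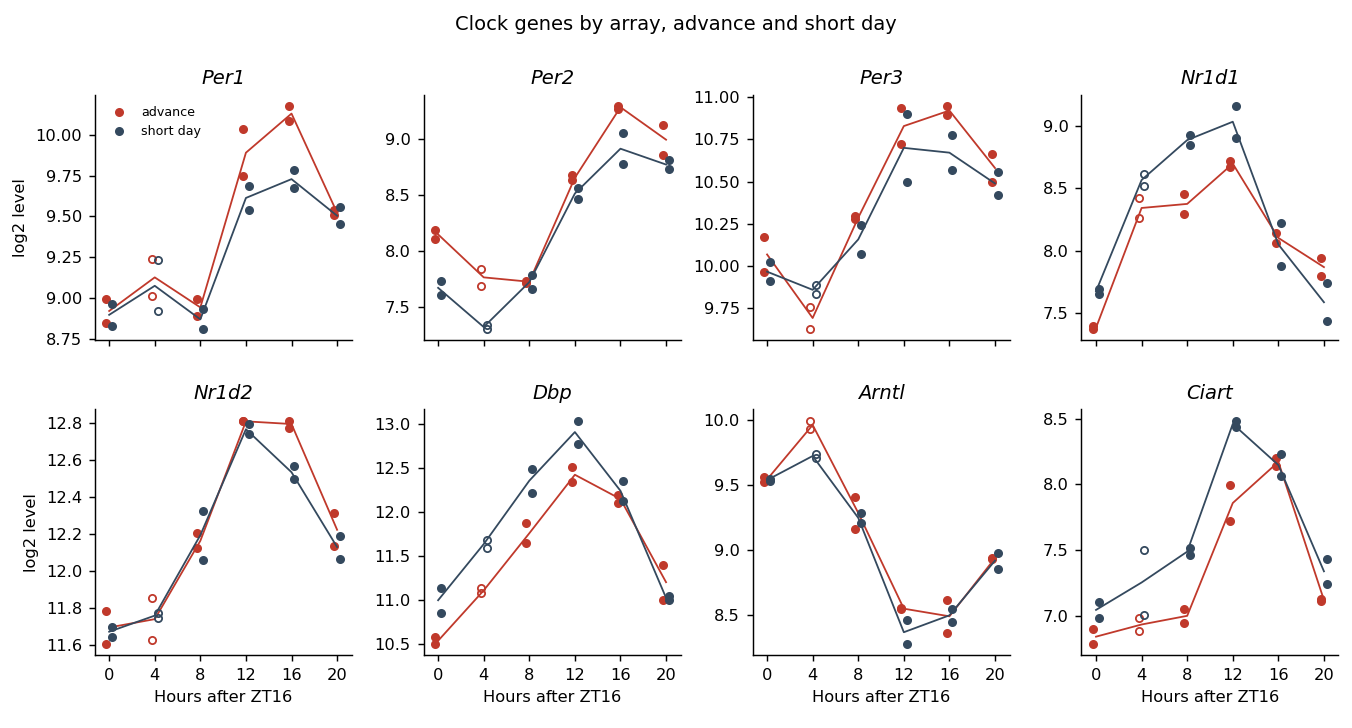
Log2 level per array of 8 clock genes against hours after ZT16 in advance and short-day arrays, with lines through the means of 2 arrays and open circles for ZT20. Per1 reads 10.08 and 10.18 at 16 h in advance, against 9.79 and 9.67 under short days, and no clock gene passed a test of different courses.

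Tshb itself was high but variable. It read 11.74 and 11.44 at light onset, 12.23 and 13.21 at 8 h, 13.02 and 13.03 at 12 h, 12.37 and 12.95 at 16 h, and 12.55 and 13.25 at 20 h. All 8 later arrays were above both onset arrays, with changes of 1.13, 1.44, 1.07 and 1.32 ± 0.39, but none passed (adjusted p = 0.464, 0.0772, 0.347 and 0.216). Under short days the changes were 0.24, 0.14, 0.17 and 0.25 around levels of 9.72 to 11.26 in the 10 arrays. Cga, its partner subunit, changed by -0.08 to 0.14 in the advance steps. Of the 9 measured thyrotropin and photoperiod genes, none passed at 8 h, 1 rose at 12 h, 2 at 16 h and 3 at 20 h.

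Smaller groups gave single genes. Vegfd, a lymphatic and vascular growth factor, read 8.65 and 8.42 at 16 h, against 10.17 and 9.90 at light onset, a change of -1.5 ± 0.18 (adjusted p = 1.63e-06), and it was the 1 gene of 17 in the angiogenesis list that passed in a step. The glucocorticoid-responsive genes Fkbp5 (0.75 ± 0.14) and Zbtb16 (1.15 ± 0.24) rose at 16 h, 2 of 16 measured. The other Fkbp5 probe sets changed by -0.021 and -0.183 and the mean of all by 0.18, which did not pass, and Zbtb16 lost its call without any 1 of the 4 arrays of the step. Jun (-0.71 ± 0.12) and Atf3 (-0.88) were the 2 of 25 genes on the immediate early list that fell at 12 h. Phlda1 and Ier5, named above, were not on that list. Dusp1, a MAP kinase phosphatase, rose by 0.73 at 16 h, a call that was also lost without any 1 of the 4 arrays. Aldh1a3, which makes retinoic acid, read 6.54 and 6.52 at 20 h, against 5.46 and 5.40 at light onset (rise 1.10 ± 0.21, adjusted p = 0.00385). Its other probe sets changed by 0.329 and 0.059 and the mean of all by 0.50, which did not pass, and the call was also lost without any 1 of the 4 arrays of the step. In the endoplasmic reticulum folding list, Dnajb11 fell at 12 h and Herpud1 rose at 16 h, and the other 22 of 24 did not pass. No gene of the 32 of mitochondrial complex I, the 30 ribosomal protein genes, the 14 secretory granule genes, the 11 endocannabinoid genes or the 13 interferon-stimulated genes passed in any of the 4 steps. Among neighbouring cells, none of 15 pars distalis, 10 ependymal, 22 neuronal, 11 oligodendrocyte, 10 endothelial or 8 choroid plexus markers passed in a step. Of 12 markers for meninges and fibroblasts 1, Col1a1, fell at 16 h (-0.64, adjusted p = 0.0133). In the F test over the 5 time points, passed by 2.12% of all genes, some markers did pass. They were Ghsr and Gata2 for the pars distalis, Ermn for oligodendrocytes, Plvap for endothelium and Col1a1. No ependymal, neuronal or choroid plexus marker passed it. Under short days 11.3% of all genes passed this F test. So did 8 of 12 meninges and fibroblast, 6 of 10 endothelial, 5 of 14 tanycyte and 3 of 11 oligodendrocyte markers. It was also passed by 3 of 15 pars distalis, 2 of 10 ependymal and 1 of 22 neuronal markers, and by no choroid plexus marker. The part of such cells in differences between the conditions was not tested.

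Under short days the same steps gave more genes at ZT0 and ZT4 than in advance. At ZT0 414 genes passed there (2.28%), and 801 did so at ZT4 (4.4%). The later steps gave 60 genes at ZT8 (0.33%) and 69 at ZT12 (0.379%). These counts hang on the short-day onset arrays: without short-day ZT16 replicate 1 they were 1281, 1468, 1063 and 1431, and without replicate 2 they were 82, 277, 15 and 12. The ZT0 count was 703 or 18 without replicate 1 or 2 of that time, the ZT4 count 62 or 1980, and the ZT12 count 42 or 27, while the ZT8 count was 24 without replicate 1. The sustained genes moved under short days too. Over the 4 short-day steps Neurod1 fell, by 2.9 at its least and with a change of -3.08 at ZT8, and Klhl41 fell, with changes of -1.34 at ZT0 and -1.95 at ZT12. Cry1 changed by -1.52 at ZT4 and -0.61 at ZT12, and Dusp4 rose by 1.41 to 2.18. Of the 7 sustained falls, all 7 had the same sign in the mean short-day step. Det1 read 7.09 to 7.46 in the 8 later short-day arrays, against 7.58 and 7.54 at short-day ZT16, and passed in no short-day step. Mtnr1a read 9.63 and 9.07 at short-day ZT12, against 7.15 and 7.0 at ZT16 (rise 2.27, adjusted p = 0.00306). Hspa1b also read higher at short-day ZT12, with 10.67 and 10.94 against 9.92 and 9.95 at ZT16 (rise 0.87, adjusted p = 0.0187).

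Of the 30 late rises, all had a positive short-day change at ZT12 and 12 passed there, beside 0.225% of all genes higher in that step. Of the 14 early genes, 3 passed in the same direction at short-day ZT0: Nmu and Fabp7, both higher, and Hsph1, lower, beside 1.63% of all genes higher and 0.649% lower in that step. Eya3 was not among the 12. It read 9.43 and 9.17 at short-day ZT12, against 9.01 and 9.24 at ZT16 (change 0.18, adjusted p = 0.756), and the advance step exceeded the short-day step by 1.09, which did not pass (adjusted p = 0.391). Mtnr1a, by contrast, passed at ZT12 in both conditions, and the difference of its steps, 0.57, did not pass (adjusted p = 0.862).

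When the steps were subtracted from each other, few genes differed between conditions. The advance step minus the short-day step passed for no gene at ZT0, for Ppp1r3c at ZT4 (0.0055% of genes), for Dram1 and Hhip at ZT8 (0.011%) and for none at ZT12. At an unadjusted p below 0.05 there were 1695 genes at ZT0 and 1218 at ZT12. Ppp1r3c read 12.59 and 12.79 at advance ZT4 and 11.66 and 11.69 at advance ZT16, while it read 11.35 and 11.13 at short-day ZT4 and 11.39 and 11.20 at short-day ZT16. The advance rise of 1.01 was thus 1.07 above the short-day change (adjusted p = 0.0084), but at ZT12 Ppp1r3c rose by 0.97 in advance and 1.02 under short days. Hhip read 9.49 and 9.46 at advance ZT8, against 7.79 and 7.90 at short-day ZT8, and its step differed by 1.24 (adjusted p = 0.00871). Dram1 read 9.04 and 9.19 at advance ZT8, against 7.86 and 8.06 at short-day ZT8, and its step differed by 1.05 (adjusted p = 0.00207). The Hhip difference was lost without short-day ZT8 replicate 1, short-day ZT16 replicate 2, advance ZT16 replicate 1 or either advance ZT8 array. The Dram1 difference was lost without short-day ZT8 replicate 1 or advance ZT8 replicate 2. The Ppp1r3c difference was lost without advance ZT16 replicate 1 or advance ZT4 replicate 2 and with the mean of its probe sets.

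The change from ZT0 to ZT12 differed for Hdac4, Pde10a, Pdzrn3, Mfsd2a and Celsr1, 0.0275% of genes, each with the higher signed change in advance. For Hdac4 the change was 1.13 in advance and -0.20 under short days, a difference of 1.33 (adjusted p = 4.4e-05). Hdac4 read 9.20 and 9.14 at short-day ZT12, against 9.30 and 9.55 in advance. At ZT0 it read 8.31 and 8.28 in advance, against 9.18 and 9.57 under short days. At ZT16, light onset, the levels were 8.38 and 8.37 against 8.90 and 9.05. Mfsd2a, too, was lower in both advance arrays than in both short-day arrays at ZT16 and ZT0. At ZT12 its advance and short-day levels overlapped. Pde10a read 10.10 and 10.29 at advance ZT12 and 9.44 and 9.10 at advance ZT0, while under short days it read 9.39 and 9.75 at ZT12 and 9.80 and 10.20 at ZT0. It was thus higher at ZT12 in advance and lower at ZT12 under short days, and the difference was 1.35 (adjusted p = 0.0183). In Pdzrn3, a PDZ and RING finger protein, and Celsr1, a planar polarity cadherin, no advance step passed. Under short days both read lower at ZT12 than at ZT0. Celsr1 read 8.914 and 9.023 at short-day ZT0 and 8.391 and 8.331 at short-day ZT12. Pdzrn3 read 10.968 and 11.226 at short-day ZT0 and 10.535 and 10.656 at short-day ZT12. Only 1 of these 5 genes passed without short-day ZT0 replicate 2, without advance ZT0 replicate 2 or without advance ZT12 replicate 2, and 2 without short-day ZT12 replicate 2 or advance ZT0 replicate 1. The count was 35 without short-day ZT0 replicate 1 and 10 without short-day ZT12 replicate 1.

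Tests over all 5 time points gave 385 genes with a course in advance (2.12%) and 2060 under short days (11.3%), and 15 whose courses differed (0.0824%). The 15 were Hdac4, Ppp1r3c, Dram1, Dio2, Hhip, Pde10a, Mfsd2a, Pdzrn3, Slc6a4, Slc6a6, Ccnd3, Celsr1, Dhrs3, Rbm46 and Slco1c1. Of the 30 late rises 10 were among them, a count from which nothing is read because the advance arrays chose those genes. The count of 15 was 313 without short-day ZT16 replicate 1 and 221 without short-day ZT4 replicate 2, and it was 5 without short-day ZT0 replicate 2 or advance ZT0 replicate 2 and 9 without short-day ZT12 replicate 2, advance ZT4 replicate 2, advance ZT8 replicate 1 or advance ZT12 replicate 2. No clock gene was among the 15, although 16 of the 22 had a course in advance and 15 under short days.

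**Figure D5:**
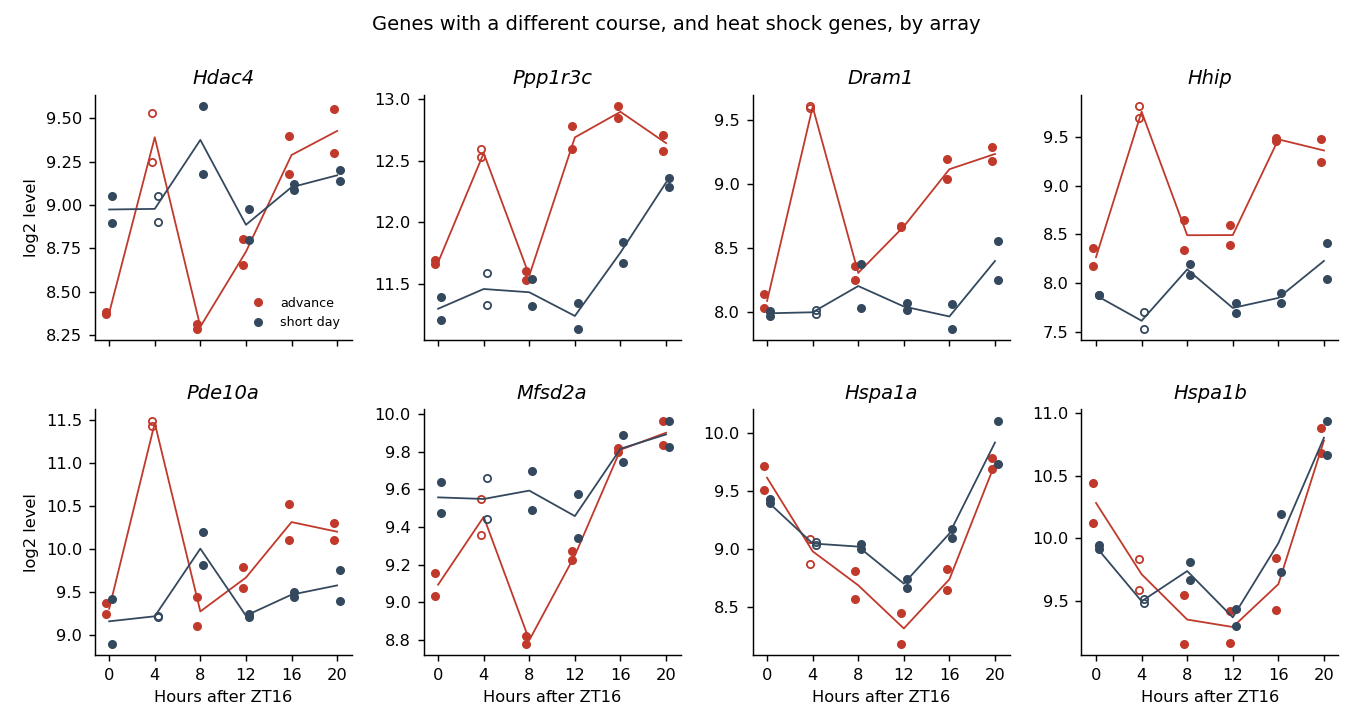
Log2 level per array against hours after ZT16 for 6 genes with a different course and for Hspa1a and Hspa1b in advance and short-day arrays. The 6 are Hdac4, Ppp1r3c, Dram1, Hhip, Pde10a and Mfsd2a. Lines run through the means of 2 arrays, and open circles mark ZT20. Hhip reads 9.49 and 9.46 at ZT8 in advance, against 7.79 and 7.90 under short days.

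The levels of the chronic long-day arrays entered none of the advance steps, although these arrays shared in the model's estimate of spread. They gave a separate view of the same genes. Averaged over 6 time points, 17.6% of all genes were higher and 29.1% lower in long days of 2 weeks than in short days. These were 8503 genes, and with the actin signal as a covariate the count was 5006. The counts and values that follow are from the model without that covariate. Of the 30 late rises 24 were higher there and 1 was lower, with a median difference of 0.376, beside -0.0294 over all genes. Slco1c1 was 1.5 higher, Aldh1a7 1.46, Hhip 1.16, Dio2 1.02 and Eya3 0.90. Mtnr1a was 0.90 higher (adjusted p = 1.99e-05), while the difference for Hdac4 was 0.02 and did not pass. Of the 11 late falls 7 were lower in chronic long days, led by Lgr6 at -1.10. Among the 9 early falls 6 were lower, including Hspa1a at -0.58, and Dnajb1 was higher by 0.31. Of the 7 sustained falls, by contrast, 1 was lower and 2 were higher, and both sustained rises were higher, Dusp4 by 2.05 and Timeless by 1.30.

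Promoter windows were found for 53 of the 64 sustained, early and late genes in the RefSeq table of build GRCm38.p6. Each window of 300 bases was searched on both strands, with a gene counted once however many windows it had, for CACGTG (E-box), TTATGTAA (D-box), TGACGTCA (cAMP response element) and the heat shock element given above. The E-box and the cAMP response element share the core letters ACGT. The E-box was near 10 of the 53 genes, 18.9%, beside 8.09% of all genes in the table, and 6 of those 10 were late rises: Coq10b, Maff, Mtnr1a, Ppp1r3c, Rbm46 and Slco1c1. The cAMP response element was near 3 (Dio2, Hhip and Maff, all late rises), beside 2.03% of all genes, the D-box near 2 (Coq10b and Timeless), beside 1.11%, and the heat shock element near Hsph1, beside 0.662%. A match describes the letters of the window and not a bound site.

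Among all genes, those with courses most like that of Eya3 over the 10 advance arrays were Creb3l2 (Pearson's r 0.965), Lor (0.941), Mtnr1a (0.941), Fbln5 (0.927) and Hr (0.918). These correlations describe 10 arrays in which 2 stand high. Of the 5, Mtnr1a passed at 20 h, while Creb3l2 changed by 0.41, Lor by 0.15, Fbln5 by 0.46 and Hr by 0.44 without passing.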

How the data were processed

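The series holds 48 Affymetrix arrays of mouse pars tuberalis RNA. The values are log2 probe set intensities that the authors made with RMA in R 2.8.0, per the submitters' processing notes, and deposited as 1 table, so background correction, normalization and summary were left as they were. All arrays held different values, and for arrays their number limits the precision. Of 45101 probe sets, 34958 had 1 gene symbol, 932 several and 9211 none; 34754 matched the RefSeq gene table, which changed no symbol. The brightest probe set stood for each of 18194 genes, 9012 of which had more than 1.

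A mean for each of 24 groups of 2 arrays was fitted with limma 3.58.1 in R 4.3.3, with 24 residual degrees of freedom and a variance trend. Tests were two-sided, with Benjamini-Hochberg adjustment over all genes. The script was tested on simulated data with 200 changed genes.

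Genes were named by a rule: the largest sustained, early and late changes, the smallest p-values for differences from short days, Tshb, Cga, Eya3, Dio2, Mtnr1a, Tef, Hlf, the clock list, and from each other list at most 4 members. Of 560 entries in 33 lists, 504 were measured. The courses, lists and genes were chosen with earlier results of these data known. Genes named outside the rule, such as those lost without 1 array, were chosen after their values were seen. Same-numbered replicates were not taken as pairs: across genes, their deviations correlated with a median r of 0.0571 over 10 pairs of advance time points, of which 3 exceeded 0.1.

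Alternatives were a model without the trend, the advance and short-day arrays alone, genes with a mean level of at least 6, replicate blocks, probe set means, cyclic loess, the actin signal ratio as a covariate and leaving out each array. Leaving out both arrays with high Gh or Prl was added after seeing the data.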

Additional observations from a re-analysis of the deposited data

Results flagged for a closer look

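Genes whose course differed between the first long day and short days, by a test of the difference itself, were singled out. The F test over 5 time points gave adjusted p = 4.33e-05 for Hdac4, 4.33e-05 for Ppp1r3c, 0.000541 for Dram1, 0.00139 for Dio2, 0.00419 for Hhip and 0.00618 for Pde10a. At single times, the advance step exceeded the short-day step by 1.07 for Ppp1r3c at ZT4, 1.24 for Hhip at ZT8 and 1.05 for Dram1 at ZT8, on the log2 scale. The signed change from ZT0 to ZT12 was higher in advance by 1.35 for Pde10a, 1.33 for Hdac4, 0.82 for Pdzrn3, 0.8 for Mfsd2a and 0.73 for Celsr1. Pdzrn3 and Celsr1 read lower at ZT12 than at ZT0 under short days. The advance mice were 6 weeks old and the short-day mice 8 weeks old, so age and light regime cannot be told apart in these differences.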

How the results depend on the processing

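With 2 arrays per group, the lists of genes depended on single arrays. Nearly all of the refitted genes and steps were chosen because they passed, so a reversal or a gain was unlikely from the start. Among these named genes and steps no direction reversed under any alternative, and nothing is read from that. Of the refits, 5157 kept their side of the threshold, 393 lost it and 5 gained it. The gain and loss of genes was largest in comparisons that use the short-day arrays, and the cause was not tested. Age separates advance from short-day mice in every difference between them.

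Leaving out each array in turn gave, for the advance steps from ZT16, 11 to 33 genes at ZT0, 40 to 158 at ZT4, 48 to 120 at ZT8 and 40 to 93 at ZT12, with 59 to 187 for ZT12 minus ZT0 and 0 to 12 for ZT12 minus ZT8. Sustained genes numbered 6 to 10, early genes 2 to 16, late genes 19 to 45 and genes with an advance course 246 to 407. For short days the ranges were 18 to 1281 at ZT0, 62 to 1980 at ZT4, 15 to 1063 at ZT8, 12 to 1431 at ZT12, 100 to 1802 for ZT12 minus ZT0, 0 to 237 for ZT12 minus ZT8 and 1012 to 3324 for the course. Short-day ZT0 replicate 2 and ZT12 replicate 2 decided the ZT12 minus ZT0 count, which was 100 and 268 without them. Differences between the conditions ranged from 0 to 427 at ZT0, 0 to 428 at ZT4, 0 to 280 at ZT8, 0 to 507 at ZT12, 0 to 716 for the mean step, 1 to 35 for ZT12 minus ZT0 and 5 to 313 for the course, and long minus short days from 8057 to 8721. The high ends came without short-day ZT16 replicate 1 for ZT0, ZT8, ZT12 and the mean step, without short-day ZT4 replicate 2 for ZT4, and without short-day ZT0 replicate 1 for ZT12 minus ZT0.

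The labels do not say whether a replicate number marks the same repeat in different groups. Deviations of same-numbered short-day arrays correlated with a median r of -0.0155 over 10 pairs of time points, at most 0.491, and 2 exceeded 0.1, so the numbers were not taken as pairs. A replicate block over all arrays gave 2 step differences at ZT4 and 1 at ZT12. A replicate block within each condition gave 264 genes for advance ZT12 minus ZT0, and for short days 759 at ZT0, 1468 at ZT4, 99 at ZT8, 3 for ZT12 minus ZT8 and 3371 for the course. With that block 1 step differed at ZT0, 5 at ZT4 and 2 at ZT12, 8 genes differed for ZT12 minus ZT0 and 23 in course.

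Without both arrays of high Gh or Prl, 40 genes passed at advance ZT12, 58 for ZT12 minus ZT0, 0 for ZT12 minus ZT8 and 245 for the course, 8 genes were early and 19 late, 35 passed at short-day ZT12 and 1 differed for ZT12 minus ZT0. With the advance and short-day arrays alone, advance ZT12 minus ZT8 gave 19 genes, short-day ZT0 gave 244 and short-day ZT12 minus ZT8 gave 7, while 1 gene differed in the mean step, 1 for ZT12 minus ZT0 and 8 in course. Without the variance trend advance ZT12 minus ZT8 gave 4 genes. Probe set means gave 1 gene there, 968 for short-day ZT12 minus ZT0 and 0 step differences at ZT4. Cyclic loess gave 5 genes for advance ZT12 minus ZT8, 262 at short-day ZT0 and 511 at ZT4. With the actin covariate the values were 15 for advance ZT12 minus ZT8, 193 at short-day ZT0, 105 at short-day ZT12 and 5006 for long minus short days.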
